A study of Homo sapiens with 6 samples.

Results

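The genes that start and carry out DNA replication were described in Caki2 cells with and without PBRM1. The group is 48 genes of 25369 in the files, chosen by their known place in replication. It holds the MCM proteins other than MCM9, the origin recognition complex (ORC) and its licensing partners, and CDC45 and GINS. It also holds the replicative polymerases and primase, the sliding clamp and its loader, the RPA complex and a fork protection factor. The rest are the Okazaki fragment enzymes, nucleotide supply, and UHRF1. Caki2 is a clear cell renal cell carcinoma line that makes no PBRM1 protein, and PBRM1 is a bromodomain subunit of the PBAF chromatin remodeling complex. Caki2+Vector cells carried the empty doxycycline-inducible lentiviral vector and Caki2+PBRM1 cells carried the same vector with PBRM1. Doxycycline at 2 µg/mL was in the medium of both, and experiments began after 72 h of it or more. From each line 3 replicates (A, B and C) were sequenced. The groups are therefore 2 lines that were infected and selected apart, so that a difference between lines cannot be told apart from an effect of PBRM1. Nothing in the labels says that the replicates came from separate cultures, so the p-values measure only the spread between these samples.

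A cell copies its genome from many origins. In G1, ORC and CDC6 bind DNA and, with CDT1, load pairs of MCM2 to MCM7 rings, which stay inactive until S phase. CDC45 and GINS then join the ring to make the active helicase, primase and polymerase alpha begin each strand, and polymerases epsilon and delta extend the strands while held by the PCNA clamp. Most of these genes are known as E2F target genes that are transcribed towards the start of S phase, and MCM levels are known to mark dividing cells.

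Values are given as normalized counts, which are the reads on a gene divided by a size factor of the sample. Between 7312955 and 10835355 reads per sample fell on genes, and the 48 genes took 35615 to 48093 of them. PBRM1 itself was at 182 to 195 normalized counts in Caki2+Vector and at 2432 to 2682 in Caki2+PBRM1. Of 14 renal epithelial markers, PAX8 was at 1888 to 2190 normalized counts and KRT8 at 7228 to 8812. Others were low, with PAX2 at 20.4 to 34.0, EPCAM at 10.4 to 19.6 and CUBN at 10.8 to 19.3. The 8 fibroblast markers summed to 104 to 132 normalized counts, with COL1A1 alone at 65.5 to 88.9. The endothelial markers summed to under 10. Of 8 leukocyte markers, PTPRC reached at most 5.68 and CD3E was at 0 in every sample, but CD68 was at 1898 to 2140 and ITGAM at 169 to 224, and the sum of the 8 ranged from 2175 to 2371 with the empty vector and from 2110.0 to 2139 with PBRM1. Their part in the results was not tested. LRP2 of the proximal tubule and CA9, a common marker of clear cell carcinoma, did not reach the filter used for testing. Caki2+Vector A stood apart from the other samples of its group. Over all genes, chi-square per degree of freedom between replicates was 3.09 and 2.84 for the pairs with Caki2+Vector A and 1.34 for Caki2+Vector B and C, and the Caki2+PBRM1 pairs gave 1.19 to 1.22. Over the 48 genes these values were 3.27 and 3.77, 1.10, and 0.700 to 0.969. For the members that this sample moved most, values without it are given beside the result.

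All 48 genes passed the filter of at least 10 normalized counts in at least 3 samples. In limma, 17 of them (35.4%) were lower in Caki2+PBRM1 with an adjusted p under 0.05, compared with 13.0% of the 13303 genes tested. Another 2 were higher (4.17%), compared with 16.2% of all genes tested, and 29 did not pass. In 22 of the 48 genes every Caki2+PBRM1 sample was below every Caki2+Vector sample, as in 19.6% of all genes, and in 2 every sample was above, as in 22.1%. The changes were small. The median log2 fold change was -0.11, from -0.48 (TIPIN) to 0.17 (RRM2), and the median of all genes tested was -0.0036. Of the 17 genes that fell, 3 fell by more than 20% of the Caki2+Vector mean, 10 by 10% to 20% and 4 by less than 10%. The plot of fold changes by complex shows the 48 genes with their confidence intervals.

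**Figure D1:**
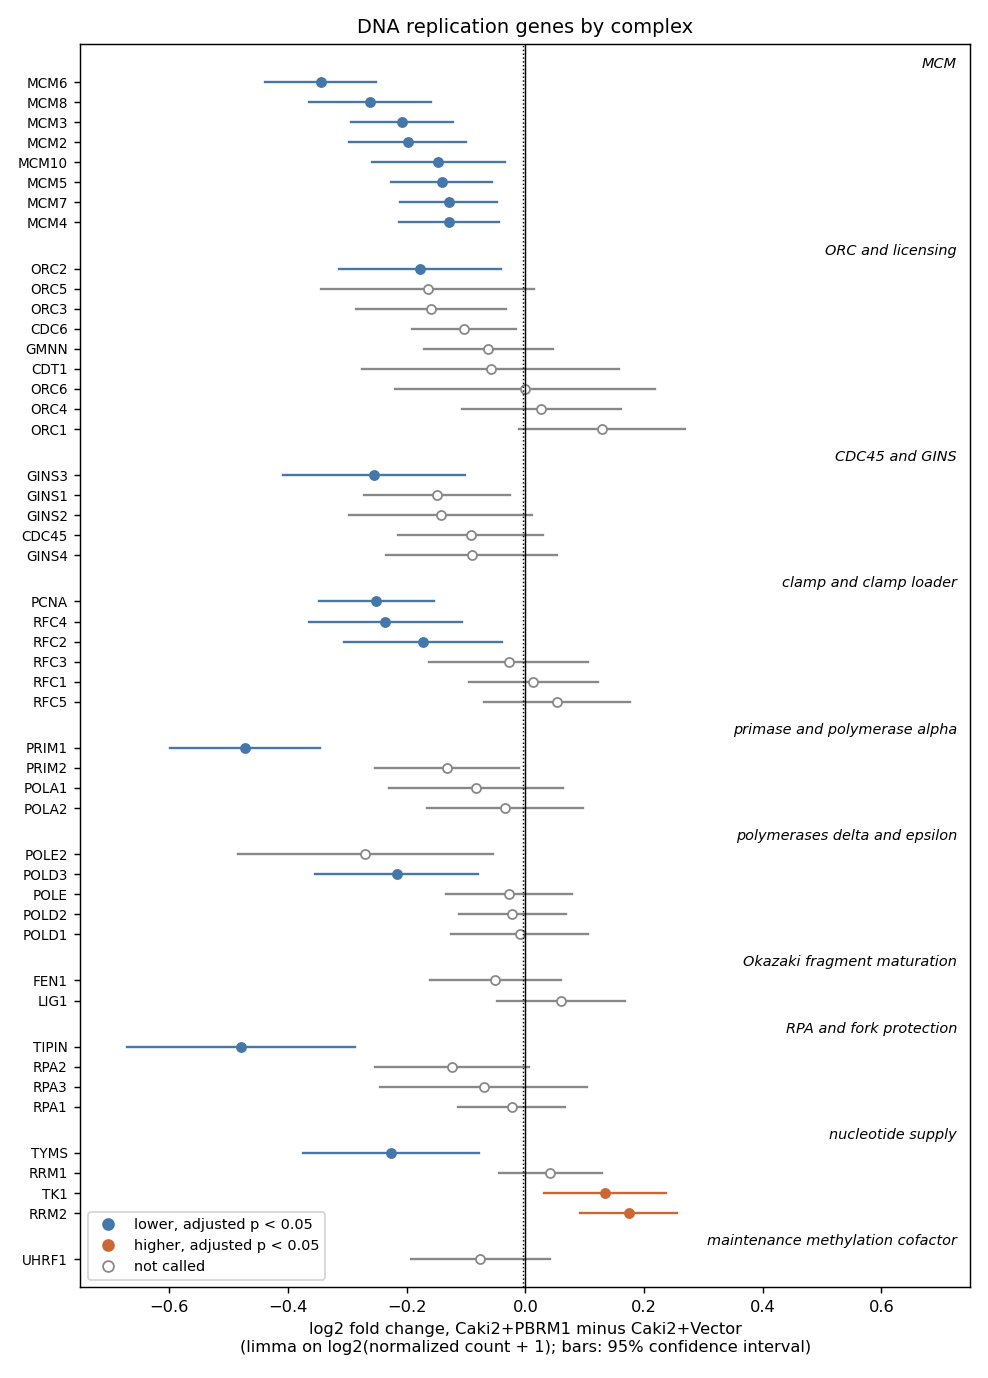
Log2 fold change (x axis, Caki2+PBRM1 minus Caki2+Vector, n = 3 against 3) of each of the 48 genes, grouped by complex, with bars for the 95% confidence interval of limma. Filled blue points are lower and filled orange points higher at an adjusted p under 0.05, open points did not pass, and the dotted line is the median of all genes tested. All 8 MCM genes shown, which do not include MCM9, lie to the left of 0. TIPIN and PRIM1 lie farthest left, and RRM2 and TK1 are the 2 filled points on the right.

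The RNA level summed over the members also differed. The 48 genes summed to 43041, 43438 and 42687 normalized counts in Caki2+Vector A, B and C and to 40112, 40073 and 40364 in Caki2+PBRM1, a change of -6.67% in the mean sum. By complex, the change of the mean sum was -12.7% for primase and polymerase alpha, -12.2% for the MCM genes and -10.1% for the clamp and its loader. It was 7.07% for nucleotide supply and ran from -9.24% (CDC45 and GINS) to 0.949% (Okazaki fragment enzymes) in the other groups. Genes of a group changed unevenly. PRIM1 changed by -28.0% beside -2.35% for POLA2, and PCNA by -16.2% beside 0.915% for RFC1. In a bulk culture, fewer cells in S phase and less RNA per cell cannot be told apart, and the cell cycle distribution was not analysed here.

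Promoters are shown for the 3 genes with the largest falls, for RRM2 with the largest rise, and for the other MCM ring subunits whose promoters could be read, because most of these genes are known E2F targets. The sequences are those of RefSeq on GRCh38.p14 and run 5′ to 3′ on the strand of the gene. For TIPIN, PRIM1, MCM6 and RRM2 they run from 250 bases before the start site to 50 after it, and for MCM2, MCM3 and MCM7 from 50 before to 50 after. Capitals mark the E2F words searched, TTTCCCGC, TTTCGCGC, TTTGCCGC and TTTGGCGC on either strand, where overlapping matches were each counted.
TIPIN (chr15:66386668-66386967, minus strand): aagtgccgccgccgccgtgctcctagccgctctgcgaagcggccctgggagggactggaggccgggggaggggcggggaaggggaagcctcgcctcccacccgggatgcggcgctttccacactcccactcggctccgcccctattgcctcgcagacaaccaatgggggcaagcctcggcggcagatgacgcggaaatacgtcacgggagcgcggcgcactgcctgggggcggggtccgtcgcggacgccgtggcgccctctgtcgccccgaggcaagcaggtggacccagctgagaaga
PRIM1 (chr12:56752274-56752573, minus strand): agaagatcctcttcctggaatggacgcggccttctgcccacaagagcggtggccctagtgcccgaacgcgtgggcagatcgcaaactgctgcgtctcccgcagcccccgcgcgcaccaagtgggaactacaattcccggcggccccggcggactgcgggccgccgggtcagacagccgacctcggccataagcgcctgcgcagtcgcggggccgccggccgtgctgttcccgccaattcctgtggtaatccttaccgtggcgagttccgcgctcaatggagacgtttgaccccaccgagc
MCM6 (chr2:135876394-135876693, minus strand): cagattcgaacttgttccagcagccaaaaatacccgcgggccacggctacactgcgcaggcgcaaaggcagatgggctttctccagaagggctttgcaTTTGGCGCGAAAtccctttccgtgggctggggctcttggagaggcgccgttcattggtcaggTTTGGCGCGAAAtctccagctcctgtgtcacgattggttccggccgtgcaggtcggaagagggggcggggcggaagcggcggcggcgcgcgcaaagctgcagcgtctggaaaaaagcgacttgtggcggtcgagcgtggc
RRM2 (chr2:10122489-10122788, plus strand): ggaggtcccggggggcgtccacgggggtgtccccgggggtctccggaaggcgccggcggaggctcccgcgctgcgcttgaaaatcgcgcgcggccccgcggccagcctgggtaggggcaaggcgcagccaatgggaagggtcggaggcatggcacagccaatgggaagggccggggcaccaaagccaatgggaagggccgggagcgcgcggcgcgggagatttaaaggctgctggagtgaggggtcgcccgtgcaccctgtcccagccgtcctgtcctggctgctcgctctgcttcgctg
MCM2 (chr3:127598361-127598460, plus strand): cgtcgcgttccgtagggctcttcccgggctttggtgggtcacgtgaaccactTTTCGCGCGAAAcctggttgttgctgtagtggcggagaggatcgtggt
MCM3 (chr6:52284693-52284792, minus strand): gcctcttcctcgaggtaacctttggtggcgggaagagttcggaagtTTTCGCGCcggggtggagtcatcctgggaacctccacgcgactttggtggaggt
MCM7 (chr7:100101348-100101447, minus strand): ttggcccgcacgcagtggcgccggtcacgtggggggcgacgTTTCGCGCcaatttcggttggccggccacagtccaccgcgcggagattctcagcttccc
In its 300 bases MCM6 held 4 matches, in 2 overlapping pairs on opposite strands. MCM2 held 2, which overlap in the same way, and MCM3 and MCM7 held 2 each that do not overlap. In MCM3 and MCM7 1 of these lies upstream of the stretch shown. TIPIN, PRIM1 and RRM2 held none of the exact words searched.

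Promoters were found for 42 of the 48 genes, and not for MCM4, MCM5, GINS4, POLD3, RPA2 and RPA3. An E2F word was present in 20 of the 42 (47.6%), compared with 3.33% of 27305 promoters of the same length and 5.3% of the 9825 tested genes with a promoter. It was present in 8 of 14 members that fell (57.1%), in 12 of 26 that did not pass (46.2%) and in neither of the 2 that rose. Among 31 mitosis genes given for comparison, 3 held an E2F word (9.68%). The CHR element TTTGAA, known from promoters of genes of G2 and mitosis, was in 1 of the 42 replication promoters (RRM1, 2.38%), in 67.7% of the mitosis promoters and in 15.4% of all promoters. The CCAAT box (CCAAT, either strand) was in 59.5% of the replication promoters, 74.2% of the mitosis promoters and 35.7% of all. Over all tested genes, 17.3% of 521 with an E2F word were lower in Caki2+PBRM1 and 9.79% higher, compared with 13% and 17.2% of 9304 without. The members are themselves among the genes with a word, and a match of letters does not show that a factor binds. Only these exact words in 300 bases were searched, so a promoter without a match may still hold an E2F site.

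All 8 MCM genes of the group were lower in Caki2+PBRM1, compared with 13.0% of all genes tested. In all 8 the groups did not overlap, compared with 19.6% of all genes tested that were lower without overlap. MCM9, listed here with the origin firing factors, is not one of the 8. It had 68.2, 83.1 and 94.7 normalized counts in Caki2+Vector and 82.3, 70.2 and 80.6 in Caki2+PBRM1. These overlapped, and MCM9 did not pass (log2 fold change -0.067, limma adjusted p = 0.764). The median log2 fold change of the 8 MCM genes was -0.17. Their counts summed to 13537, 13807 and 13455 in Caki2+Vector and to 11972, 11903 and 11965 in Caki2+PBRM1. MCM6, a ring subunit (GRCh37 chromosome 2, 136597196 to 136634013, minus strand), fell the most. It had normalized counts of 1497, 1519 and 1429 in Caki2+Vector and 1184, 1131 and 1183 in Caki2+PBRM1. The groups were far apart relative to their spread, with a log2 fold change of -0.34 ± 0.046 (SE, limma adjusted p = 7.86e-07), a fall of 21.3%. MCM8, a helicase outside the ring that is known for repair by homologous recombination, had 1099, 1055 and 1046 against 882, 855 and 934 normalized counts. It fell by 0.26 on the log2 scale (SE 0.050, adjusted p = 0.000177). MCM3, a ring subunit, had 2696, 2516 and 2413 against 2205, 2204 and 2186. The Caki2+PBRM1 samples lay close together, and the log2 fold change was -0.21 ± 0.042 (SE, limma adjusted p = 0.000343). MCM3 was highest in Caki2+Vector A, and without this sample the log2 fold change was -0.16.

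The remaining MCM genes changed less. MCM2, the subunit that also binds histones, had 1318, 1488 and 1395 normalized counts in Caki2+Vector and 1194, 1242 and 1221 in Caki2+PBRM1, with a log2 fold change of -0.20 (adjusted p = 0.00214). Its lowest Caki2+Vector value was that of sample A, and without this sample the log2 fold change was -0.24. The ring subunits MCM4, MCM5 and MCM7 had log2 fold changes of -0.13, -0.14 and -0.13, with adjusted p of 0.0182, 0.0106 and 0.0146. MCM10, which helps to activate the loaded helicase, was at -0.15 (adjusted p = 0.0426). MCM4, MCM5, MCM7 and MCM10 had changes of -8.59% to -9.73% in the mean and lost the threshold when some single samples were left out, as given further on.

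Per kb of transcript, MCM7 and MCM3 were the most abundant of the 6 ring subunits and MCM6 and MCM2 the least. MCM6 made up 11.0%, 10.9% and 10.5% of the summed count per kb of MCM2 to MCM7 in Caki2+Vector and 9.72%, 9.32% and 9.81% in Caki2+PBRM1. Its share was thus lower in every Caki2+PBRM1 sample, by -1.17 percentage points, with a 2-sided exact permutation p of 0.1. This is the smallest p that 3 against 3 samples can give, so the test could call no subunit. MCM6 had the largest fall of the ring in these same values, so its lower share is not separate support. The shares of MCM4 and MCM7 were higher in every Caki2+PBRM1 sample (p = 0.1, exact), by 0.465 and 0.881 points, although both genes fell. The shares are parts of one sum, so a lower share of MCM6 raises those of other subunits. The shares of MCM2, MCM3 and MCM5 overlapped between groups, with exact permutation p of 0.7, 1.0 and 0.4.

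**Figure D2:**
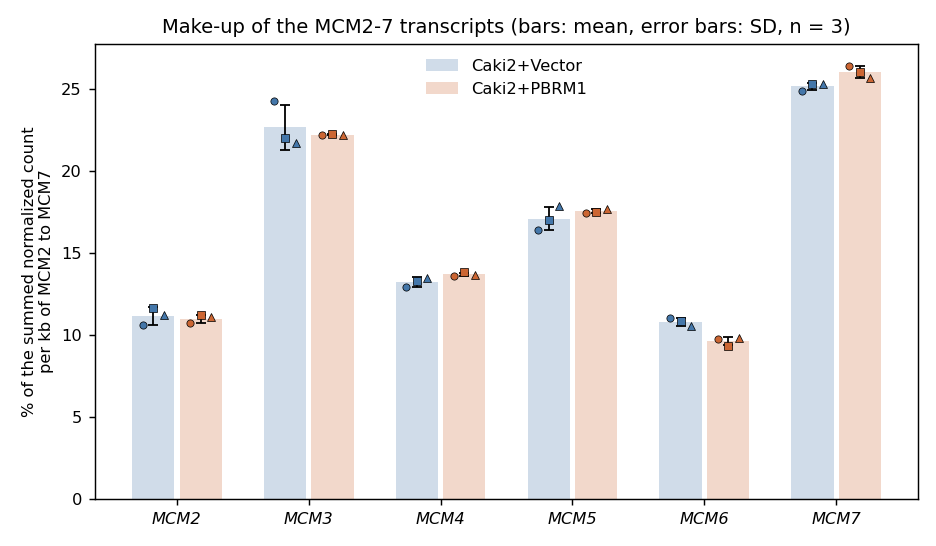
Share of each subunit in the summed normalized count per kb of MCM2 to MCM7 (y axis, %), in Caki2+Vector (blue) and Caki2+PBRM1 (orange). Bars are means, error bars SD (n = 3), and circles, squares and triangles are replicates A, B and C. The MCM6 points at 9.32% to 9.81% in Caki2+PBRM1 lie below all Caki2+Vector points at 10.5% to 11.0%.

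Of the 9 ORC and licensing genes 1 was lower (11.1%, beside 13.0% of all genes tested) and none was higher (beside 16.2%). Their median log2 fold change was -0.063. ORC2, a core ORC subunit, had 431, 405 and 405 normalized counts in Caki2+Vector and 353, 369.8 and 374 in Caki2+PBRM1. The groups did not overlap, and the log2 fold change was -0.18 ± 0.067 (SE, limma adjusted p = 0.0453). The call is a weak one, since the threshold was missed whenever any single sample was left out (adjusted p up to 0.162). ORC1, the subunit that comes and goes with the cell cycle, had 353, 353 and 342 against 369, 376 and 401 normalized counts. All Caki2+PBRM1 samples were above all Caki2+Vector samples, but the log2 fold change of 0.13 did not pass (adjusted p = 0.166). ORC3 was at -0.16 (adjusted p = 0.0528, past the threshold in 5 of 16 alternatives), ORC5 at -0.16 (adjusted p = 0.166) and ORC4 at 0.027 (adjusted p = 0.802). ORC5 was highest in Caki2+Vector A, and without this sample it was at -0.12. ORC6, which binds the rest of the complex loosely, had a log2 fold change of -0.00047 with a 95% confidence interval from -0.22 to 0.22. Caki2+Vector A was its lowest sample, and without it the log2 fold change was -0.096 (adjusted p = 0.546).

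CDC6, the loader that joins ORC, and GMNN, the inhibitor of CDT1, had log2 fold changes of -0.10 and -0.063, with adjusted p of 0.0668 and 0.409. GMNN was highest in Caki2+Vector A, and without this sample it was at -0.017. CDT1, which brings the MCM ring to ORC, had 302, 414 and 411 normalized counts in Caki2+Vector and 330.4, 357 and 385 in Caki2+PBRM1. Caki2+Vector A was the lowest of the 6 samples, and CDT1 did not pass with it (log2 fold change -0.059, adjusted p = 0.721). Without it, CDT1 was lower by -0.21 (adjusted p = 0.0180), and CDC6 passed too (-0.12, adjusted p = 0.0179).

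All 5 genes of CDC45 and GINS had negative log2 fold changes, with a median of -0.14. Of these 1 passed (20%, beside 13.0% of all genes tested that were lower). GINS3 had 373, 343 and 409 normalized counts in Caki2+Vector and 323, 296 and 321 in Caki2+PBRM1. The lowest Caki2+Vector sample was above the highest Caki2+PBRM1 sample, and the log2 fold change was -0.26 ± 0.075 (SE, limma adjusted p = 0.0106). The call was lost without Caki2+Vector C (adjusted p = 0.0819). The other GINS subunits and CDC45, which tie the MCM ring into the active helicase, had log2 fold changes from -0.15 (GINS1) to -0.091 (GINS4). GINS1 missed the threshold with all samples (adjusted p = 0.0611) and passed without Caki2+Vector A (-0.21, adjusted p = 0.00208).

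Primase and polymerase alpha lay down the RNA and DNA primer of every new strand. PRIM1, the catalytic primase subunit (GRCh37 chromosome 12, 57124222 to 57146158, minus strand), had 647, 630.2 and 582 normalized counts in Caki2+Vector and 433, 466 and 439 in Caki2+PBRM1. It fell by 28.0%, with a log2 fold change of -0.47 ± 0.062 (SE, limma adjusted p = 6.12e-07). Its exons share bases in the GENCODE annotation with NACA, which lies next to it on the same strand, is far more abundant (mean normalized count 6852 with the empty vector and 6149 with PBRM1) and was itself lower (log2 fold change -0.15, adjusted p = 0.00622). PRIM2, the regulatory primase subunit, also had no overlap between groups, with 626, 590.5 and 562 against 546, 550.2 and 525, but did not pass (log2 fold change -0.13, adjusted p = 0.0976). The catalytic subunit POLA1 and the accessory subunit POLA2 of polymerase alpha were at -0.083 and -0.034 and did not pass. The 2 primase subunits thus differed in their estimates, by -0.47 against -0.13, with 95% confidence intervals of -0.60 to -0.35 and -0.25 to -0.010; this difference was not tested.

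Polymerase delta extends the lagging strand and polymerase epsilon the leading strand. The catalytic subunits POLD1 and POLE, and the accessory subunit POLD2, had log2 fold changes of -0.0094, -0.028 and -0.022. Their 95% confidence intervals ran from -0.13 to 0.11, from -0.13 to 0.078 and from -0.11 to 0.068. POLD1 was at -0.064 without Caki2+Vector A (adjusted p = 0.370). POLD3, an accessory subunit of polymerase delta, had 432, 402 and 417 normalized counts in Caki2+Vector and 364, 368 and 343 in Caki2+PBRM1. It was lower in every sample, with a log2 fold change of -0.22 ± 0.067 (SE, limma adjusted p = 0.0150), and without Caki2+PBRM1 C the adjusted p was 0.0917. POLE2, an accessory subunit of polymerase epsilon, had the largest estimate of this group, with 203, 182 and 159 against 168, 135 and 148. The groups overlapped, and the log2 fold change of -0.27 ± 0.11 did not pass (SE, limma adjusted p = 0.0530). It passed in 6 of the 16 alternatives, among them edgeR on recovered reads (adjusted p = 0.0296) and without Caki2+Vector C (-0.36, adjusted p = 0.0152). With DESeq2 on recovered reads it did not pass (adjusted p = 0.188). Without Caki2+Vector A it was -0.19 (adjusted p = 0.191).

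PCNA is the ring that holds polymerases on DNA, and the RFC complex opens and loads it. PCNA (GRCh37 chromosome 20, 5095599 to 5107272, minus strand) had 2819, 2570 and 2388 normalized counts in Caki2+Vector and 2136, 2176 and 2207 in Caki2+PBRM1. The groups did not overlap, and the log2 fold change was -0.25 ± 0.047 (SE, limma adjusted p = 0.000166). RFC4, a small loader subunit, had 885, 775 and 709.5 against 667, 662 and 674, with a log2 fold change of -0.24 ± 0.063 (SE, limma adjusted p = 0.00541). Both genes were highest in Caki2+Vector A, and without it the log2 fold changes were -0.19 for PCNA (adjusted p = 2.16e-05) and -0.15 for RFC4 (adjusted p = 0.0256).

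RFC2, another small subunit, had 444, 453 and 495 normalized counts against 408, 419.5 and 406. It passed narrowly (log2 fold change -0.17, adjusted p = 0.0457), and without Caki2+Vector C it did not (-0.13, adjusted p = 0.209). The large subunit RFC1 and the small subunits RFC3 and RFC5 were at 0.013, -0.028 and 0.053 and did not pass. So 3 of the 6 genes of the clamp and its loader fell (50%, beside 13.0% of all genes tested). The 4 small RFC subunits ranged from -0.24 to 0.053.

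The flap endonuclease FEN1 and the DNA ligase LIG1, which finish Okazaki fragments, did not pass. LIG1 had 1007, 1121 and 1155 normalized counts in Caki2+Vector and 1183, 1094 and 1142 in Caki2+PBRM1, which overlapped (log2 fold change 0.060 ± 0.052 SE, adjusted p = 0.426). Without Caki2+Vector A, its lowest sample of that group, it was at 0.0011. FEN1 was at -0.051 (adjusted p = 0.525).

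TIPIN, which with TIMELESS travels with the fork and steadies it when it stalls (GRCh37 chromosome 15, 66628529 to 66679084, minus strand), had the largest fall of the 48. It had 213, 189 and 198 normalized counts in Caki2+Vector and 148, 139 and 142 in Caki2+PBRM1. The groups were well apart, with a fall of 28.5% and a log2 fold change of -0.48 ± 0.094 (SE, limma adjusted p = 0.000218). TIPIN was highest in Caki2+Vector A, and without this sample the log2 fold change was -0.43. The 3 subunits of RPA, which coats single-stranded DNA, did not pass. RPA1 had 1292, 1295 and 1287 against 1278, 1260.4 and 1275, a difference that was small (log2 fold change -0.023) although the groups did not overlap. RPA2 was at -0.12 (adjusted p = 0.145), also without overlap. RPA3 was at -0.070, and its highest sample was Caki2+Vector A, without which it was at 0.023 (adjusted p = 0.869).

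Nucleotide supply was the only group of members with genes called higher, 2 of 4 (50%, beside 16.2% of all genes tested). ORC1, of the ORC and licensing group, was also higher in every Caki2+PBRM1 sample (log2 fold change 0.13) but did not pass. RRM2, the regulated small subunit of ribonucleotide reductase (GRCh37 chromosome 2, 10260825 to 10351851, plus strand), had 1963, 2019 and 2057 normalized counts in Caki2+Vector and 2282, 2256 and 2275 in Caki2+PBRM1. Every Caki2+PBRM1 sample was higher, by 12.8% of the mean, with a log2 fold change of 0.17 ± 0.040 (SE, limma adjusted p = 0.00123). TK1, the thymidine kinase of the salvage route, had 1342, 1587 and 1454 against 1618, 1613 and 1568. The groups overlapped, since Caki2+Vector B was above Caki2+PBRM1 C, and the log2 fold change was 0.13 ± 0.050 (SE, limma adjusted p = 0.0453). Caki2+Vector A was the lowest sample, and without it TK1 was at 0.074 and did not pass (adjusted p = 0.165).

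TYMS, which makes thymidylate in the other route, changed in the opposite direction. It had 379, 387 and 352 normalized counts in Caki2+Vector and 334, 325 and 297 in Caki2+PBRM1, with no overlap, a log2 fold change of -0.23 ± 0.073 (SE) and an adjusted p of 0.0184. RRM1, the large subunit that pairs with RRM2, was at 0.042 (95% confidence interval -0.045 to 0.13) and did not pass. UHRF1, which leads the maintenance DNA methyltransferase to newly copied DNA, had 750, 854 and 880 normalized counts in Caki2+Vector and 803, 762 and 786 in Caki2+PBRM1. The groups overlapped and it did not pass (log2 fold change -0.076 ± 0.057 SE, adjusted p = 0.347). Caki2+Vector A was its lowest sample, and without it UHRF1 was lower (-0.15, adjusted p = 0.0200).

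**Figure D3:**
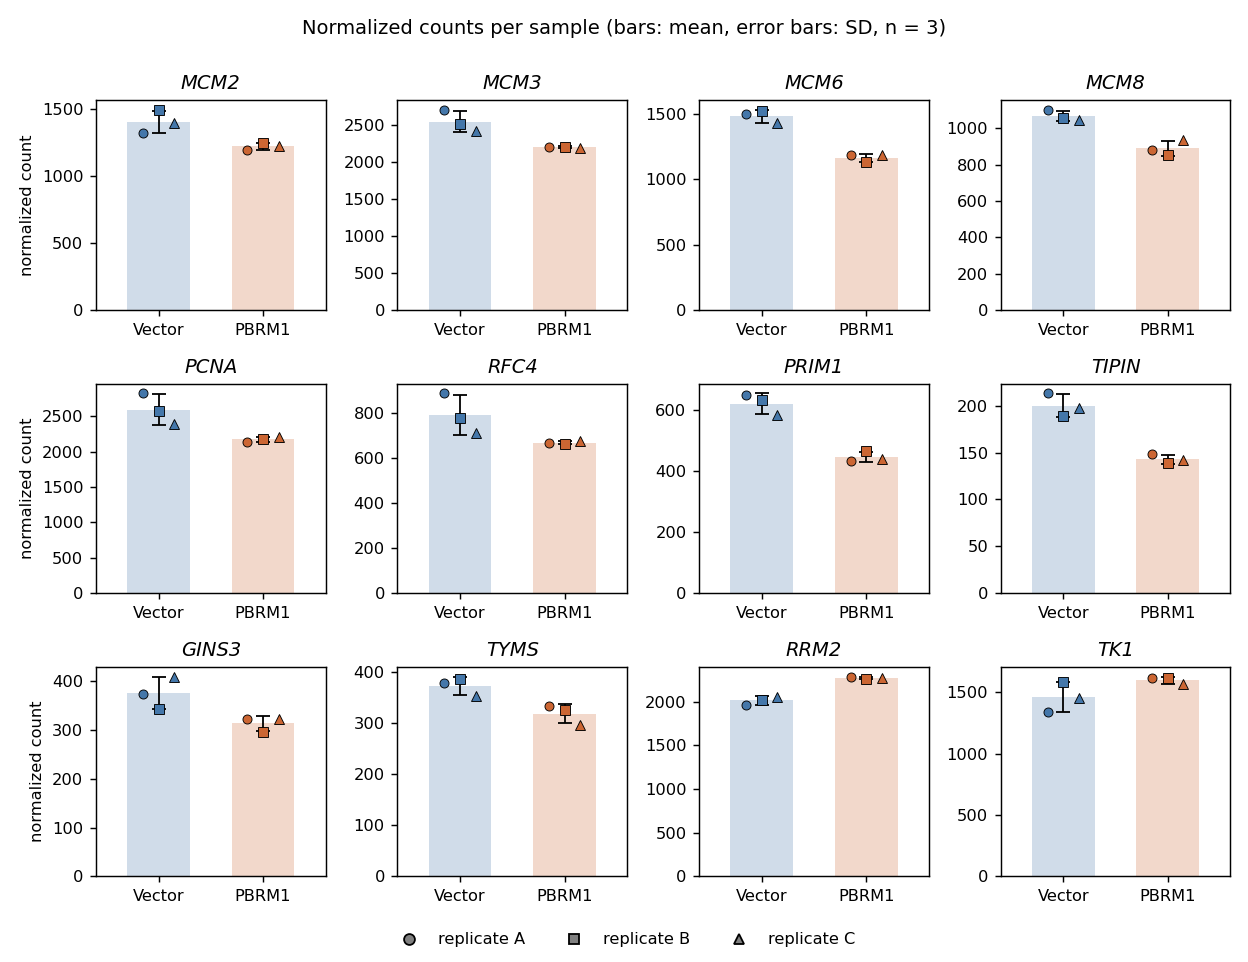
Normalized counts (y axes, from 0) of 12 genes in Caki2+Vector (blue) and Caki2+PBRM1 (orange). Bars are means, error bars SD (n = 3), and circles, squares and triangles are replicates A, B and C. MCM2 to TYMS lie lower in all Caki2+PBRM1 samples, RRM2 lies higher in all of them, and the TK1 points overlap, with Caki2+Vector A lowest at 1342.

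Level and change were set side by side per kb of the canonical GENCODE transcript. PCNA was the most abundant of the 48, at a mean of 2031 normalized counts per kb in Caki2+Vector and 1703 in Caki2+PBRM1. TK1 (1021 and 1118), POLD2 (936 and 921), MCM7 (920.0 and 841) and MCM3 (828 and 717) came next, in the same order in both groups. POLD2 and MCM7 were thus close in Caki2+Vector. RRM2 moved from the 8th place (618) to the 6th (697), past GMNN and MCM5. POLA1 was the least abundant, at 68.4 and 64.6. The genes with the largest falls came from different levels, TIPIN from 116 and PRIM1 from 436 normalized counts per kb.

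**Figure D4:**
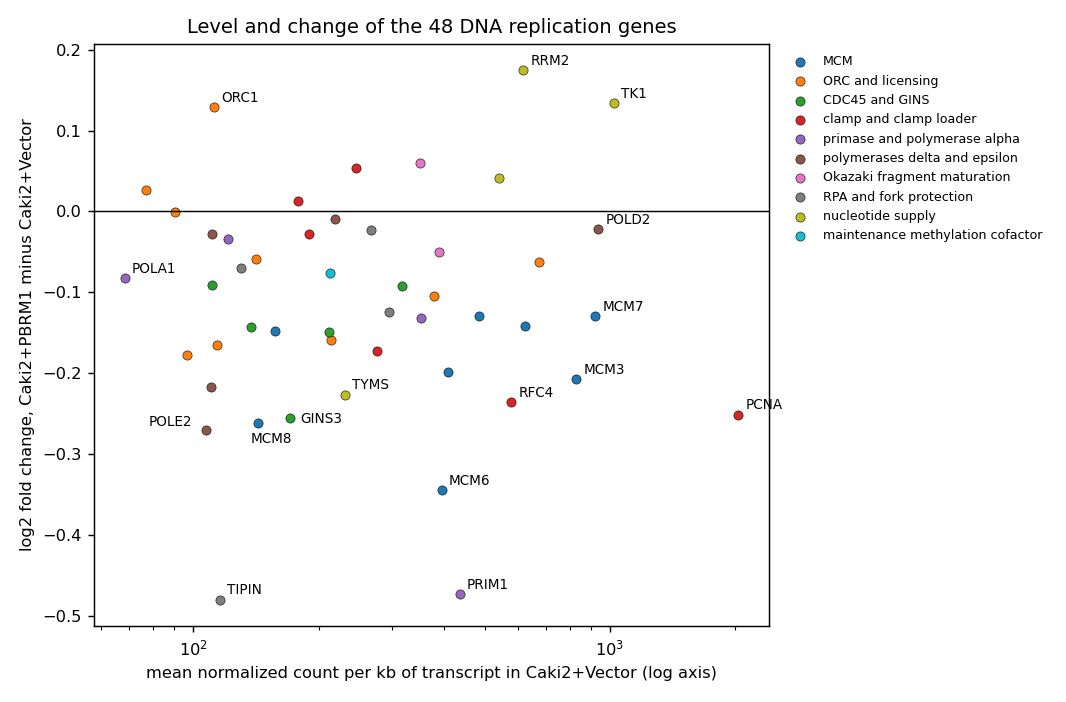
Mean normalized count per kb of transcript in Caki2+Vector (x axis, log scale) against the log2 fold change (y axis, Caki2+PBRM1 minus Caki2+Vector) of the 48 genes, coloured by complex. PRIM1 and TIPIN lie lowest at -0.47 and -0.48, from very different levels, and PCNA lies farthest right at 2031.

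The calls differed in how much they rested on single samples and on the settings. Of the 17 genes that fell, 8 (MCM2, MCM3, MCM6, MCM8, PCNA, RFC4, PRIM1 and TIPIN) passed the threshold under each of the 16 alternatives tried, and so did RRM2. The other 9 that fell missed it when at least 1 sample was left out. MCM4 missed it without any one of the samples other than Caki2+Vector A (adjusted p up to 0.0848), MCM10 without any other than Caki2+Vector C (up to 0.160) and RFC2 without any other than Caki2+Vector A (up to 0.209). MCM5 missed it without Caki2+Vector C or Caki2+PBRM1 B (up to 0.0579), MCM7 without Caki2+Vector B, Caki2+PBRM1 B or Caki2+PBRM1 C (up to 0.0957), and TYMS without Caki2+Vector B or Caki2+PBRM1 C (up to 0.131). GINS3 missed it also without Caki2+PBRM1 B, and TK1 without any one sample other than Caki2+Vector B. With DESeq2 on recovered reads, run without the filter, MCM10, ORC2, GINS3, RFC2, POLD3, TYMS and TK1 missed it. In limma, MCM10, ORC2 and RFC2 missed it with no filter on low values, and TK1 with quantile normalization. Without Caki2+Vector A, 19 of the 48 genes were lower and 1 was higher, beside 1903 lower and 2251 higher of all 13201 genes tested.

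The annotation limits some of these values. In 14 of the 48 genes, 5 of them called (MCM7, MCM8, RFC4, PRIM1 and TYMS), an exon shares bases with another coding gene in GENCODE on GRCh37, and whether the counting used strand is not given in the sources used here. RFC4 overlaps EIF4A2 on the opposite strand, which was at 0.057 (adjusted p = 0.339), TYMS overlaps ENOSF1, at 0.0056 (adjusted p = 0.964), and MCM7 overlaps AP4M1, at -0.030 (adjusted p = 0.888). Named pseudogene copies exist for 11 of the 48, among them PCNA, TIPIN, RRM2 and TYMS of the called genes. Reads that match a copy as well may have been lost or misplaced.

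Other genes of replication were described from 6 lists with no gene in common with the 48. Of 88 tested, 19 were lower (21.6%, beside 13.0% of all genes tested) and 13 higher (14.8%, beside 16.2%), with a median log2 fold change of -0.059. Of 11 origin firing factors 3 were lower (27.3%) and none higher. DBF4, the activating subunit of the CDC7 kinase, was at -0.26 (adjusted p = 0.00989). DONSON, which helps GINS onto the ring, was at -0.19 (adjusted p = 0.0127). MCMBP, a binding partner of MCM proteins, was at -0.16 (adjusted p = 0.00988). Of 18 further fork components 2 were lower (11.1%) and 1 higher (5.56%). PCLAF, a PCNA partner listed under an older symbol, was at -0.23 (adjusted p = 0.00254). WDHD1, which ties polymerase alpha to the helicase, was also at -0.23 (adjusted p = 0.00678). The histone-fold subunit POLE3 of polymerase epsilon was higher (0.18, adjusted p = 0.00664).

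Replication-coupled chromatin had 6 of 10 genes lower (60%, beside 13.0% of all genes tested) and 1 higher (10%, beside 16.2%), with a median of -0.15. CHAF1B, a subunit of the histone chaperone CAF-1, was at -0.22 (adjusted p = 0.00518), the remodeler HELLS was at -0.21 (adjusted p = 0.0263), and ASF1A, a chaperone that hands over histones, was higher (0.23, adjusted p = 0.00514).

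Nucleotide metabolism outside the 48 genes moved in both directions. Of 13 genes tested 3 were lower (23.1%, beside 13.0% of all genes tested) and 5 higher (38.5%, beside 16.2%). RRM2B, the small ribonucleotide reductase subunit known as a p53 target, had 654, 589 and 623 normalized counts in Caki2+Vector and 885, 910.2 and 859 in Caki2+PBRM1. The groups were far apart (log2 fold change 0.51 ± 0.055 SE, adjusted p = 1.98e-08), which is a larger estimate than the 0.17 of RRM2. The mitochondrial serine hydroxymethyltransferase SHMT2 was higher (0.45, adjusted p = 5.60e-10) and the cytosolic SHMT1 lower (-0.34, adjusted p = 4.46e-05). NME1, a nucleoside diphosphate kinase, was lower (-0.36, adjusted p = 0.00351), but its reads can be shared with NME2 and with their readthrough transcript.

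Of 20 E2F and RB regulators 4 were lower (20%, beside 13.0% of all genes tested) and 2 higher (10%, beside 16.2%). LIN52, a subunit of the DREAM complex (-0.48, adjusted p = 0.00180), and the repressor E2F8 (-0.36, adjusted p = 0.0149) fell, and RBL2, the pocket protein p130 (0.27, adjusted p = 0.00272), and TFDP2, an E2F partner (0.21, adjusted p = 0.0153), rose. E2F1, the activator best known for these genes, was at -0.057 and did not pass. Of 16 S-phase cyclins, CDKs and ubiquitin ligase genes 1 was lower (6.25%) and 4 were higher (25%), beside the same shares of all genes tested. CCNA1, the cyclin A known from the germ line, had 111, 111 and 102 normalized counts against 58.5, 67.6 and 55.4 (log2 fold change -0.83 ± 0.13 SE, adjusted p = 1.54e-05). CCNE2, a cyclin of S phase entry (0.30, adjusted p = 0.00711), and CDKN1A, the CDK inhibitor p21 (0.21, adjusted p = 0.000341), were higher.

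Mitosis genes were given for comparison. Of 36 tested 5 were lower (13.9%, beside 13.0% of all genes tested) and 3 higher (8.33%, beside 16.2%), with a median log2 fold change of -0.022, beside -0.11 for the 48 replication genes. The spindle factor TPX2 (-0.21, adjusted p = 7.29e-05) and the kinetochore motor CENPE (-0.15, adjusted p = 0.0339) were lower, and the ubiquitin conjugating enzyme UBE2C (0.12, adjusted p = 0.0419) the phosphatase CDC25B (0.11, adjusted p = 0.0473) and the proliferation marker MKI67 (0.094, adjusted p = 0.0462) were higher. The plot of gene lists shows all of these values.

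**Figure D5:**
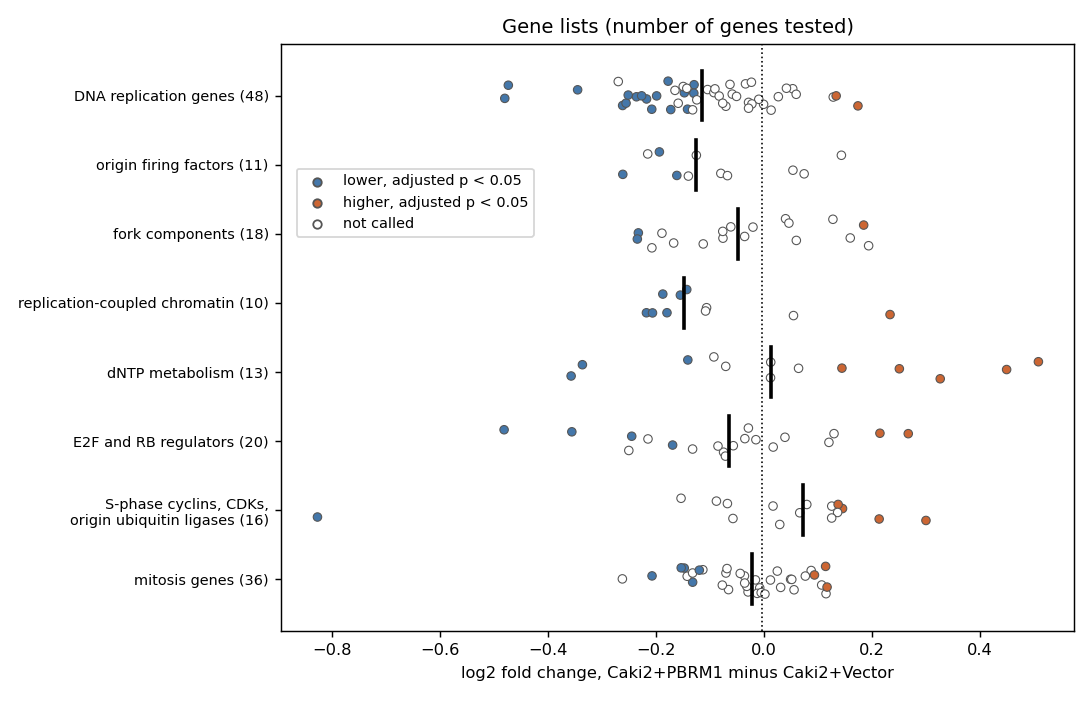
Log2 fold change (x axis, Caki2+PBRM1 minus Caki2+Vector) of each gene of the 48 and of 7 other lists, with the number tested after each name. Blue points are lower and orange points higher at an adjusted p under 0.05 in limma, open points did not pass, black bars are medians and the dotted line is the median of all genes tested. The bar of the 48 genes is at -0.11 and that of the mitosis genes at -0.022, and nucleotide metabolism holds points far out on both sides.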

How the data were processed

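RNA of 3 Caki2+Vector and 3 Caki2+PBRM1 samples was sequenced, with groups and replicate letters taken from the sample labels. According to the study's methods and the processing notes, STAR was used by the authors for alignment to hg19, HTSeq for counts per gene and DESeq2 for normalization. Each value in the deposited files is a signal value, the normalized count of a gene, not divided by gene length. All of them (100%) were whole multiples of the step of their sample within 0.05 read, so whole reads were recovered for the count tests.

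The main test was that of limma 3.58.1 (R 4.3.3; trend, robust) on log2(normalized count + 1). It covered the 13303 genes that reached 10 normalized counts in 3 samples or more, and p-values were adjusted over all of them (Benjamini-Hochberg). The threshold was an adjusted p under 0.05. A fold change on this scale understates the change of low genes. At 7312955 to 10835355 reads per sample, log2 fold changes had a median SE of 0.060 over the 48 genes and 0.083 over all genes tested. The test was checked on simulated data with 200 changed genes among 13275 tested: at a log2 fold change of 0.3, 49.5% were recovered, with 4.81% false calls.

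The members and lists were chosen with earlier results of these data known. Values in every sample are given for the 10 members with the largest falls past the threshold, those that rose and the largest change in each complex, and of each other list the 2 past the threshold with the largest change in each direction are named. CDT1, ORC1, MCM2, RFC2, PRIM2, RPA1, E2F1, MCMBP and MKI67 were added after their values were seen. Alternatives were pseudocounts of 0.5 and 4, no filter, at least 10 in every sample, quantile and TMM normalization, limma voom, edgeR 4.0.16 and DESeq2 1.42.0 on recovered reads, an adjusted p under 0.01, a replicate block and leaving out each sample. Positions, transcript lengths and overlaps came from GENCODE v44 on GRCh37 and promoters from RefSeq on GRCh38.p14, matched by symbol, with Python 3.11.15.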

Additional observations from a re-analysis of the deposited data

How the results depend on the processing

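Of the 48 genes, 17 were lower and 2 higher with all samples. With an adjusted p under 0.01 these counts were 8 and 1, and no count over all genes was made at that threshold. With DESeq2 on recovered reads they were 11 and 1 (986 and 1436 over all genes). With quantile normalization they were 21 and 1 (2083 and 1938 over all genes). Leaving out each sample in turn gave 10 to 19 lower and 1 to 2 higher, while the counts over all genes ran from 1201 to 1903 lower and from 1597 to 2251 higher. The lowest count of 10 came without Caki2+PBRM1 B or without Caki2+PBRM1 C, and 11 came without Caki2+Vector B. With the replicate block 20 of the 48 were lower and 2 higher (1858 and 2249 over all genes). Same-letter samples did not deviate together (r of 0.00587, -0.00767 and 0.0138), so the letters were not taken as pairs. The remaining settings gave 14 to 19 lower and 2 higher, with 1644 to 1836 lower and 2042 to 2194 higher over all genes. No called member changed direction. The median log2 fold change of the 48 genes stayed between -0.13 and -0.10. DESeq2 was run without the filter and called 986 lower and 1436 higher of 19380 genes. Of the 13303 genes past the filter, limma called 1734 and 2152 and edgeR called 1836 and 2194. The cause of these differences was not tested. At this depth, simulated log2 fold changes of 0.3 were recovered in 49.5% of genes over all levels of expression. The simulation changed only 200 genes, and the adjustment of p-values is stricter when fewer genes change. The 49.5% is therefore not the recovery of the test on these data, where far more genes were called. Smaller changes in a member that did not pass are limited by its own confidence interval.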
